A study of Sus scrofa with 61 samples.

Results

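The genes described here set whether a cell leaves G1: the G1 cyclin dependent kinases CDK4, CDK6 and CDK2, the D cyclins CCND1, CCND2 and CCND3, the inhibitors CDKN1A (p21), CDKN1B (p27) and CDKN2C (p18), and the retinoblastoma protein RB1. A probe was taken as a member when its array gene name, or the symbol given to it by the gene lists of the study, was one of these 10 names. This rule found 19 probes among 60305 on the array, for 9 of the 10 genes: 4 for CDKN1A, 3 each for CDK4 and CCND3, 2 each for CDK6, CDK2 and CDKN1B, and 1 each for CCND1, CCND2 and CDKN2C. No probe carried the name RB1, which was not analysed here. The CDK2 probe A_72_P661793 took its name from the gene lists of the study alone. Those lists were chosen from the same data by age and genotype effects, so calls of this probe, counted below, are no independent results.

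Longissimus muscle of 61 male pig fetuses, obtained by caesarean at gestational day 90 (d90) or day 110 (d110), was hybridized to 1-colour (Cy3) porcine expression arrays, 1 fetus per array. The fetal genotypes were Large White (LW), Meishan (MS), and the crosses LWMS (MS sow, LW boar) and MSLW (LW sow, MS boar). Every genotype was represented by 8 fetuses at d90. At d110 the numbers were 9 for LW, 8 for LWMS, 7 for MS and 5 for MSLW. Sows of both breeds were inseminated with mixed semen, so a litter could hold purebred and crossbred fetuses, and the sow of each fetus was not known here. All p-values therefore measure the spread between these fetuses, littermates included. Littermates were taken as independent, so the p-values may be too small. The ages were compared between different sows. LW fetuses came from LW sows and MS fetuses from MS sows, so the breeds of fetus and sow cannot be told apart there. The tissue was whole muscle, so fewer cells of a type and less RNA per cell cannot be told apart in any value given here.

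A cell in G1 commits to replicating its DNA when CDK4 or CDK6, bound to a D cyclin, begins to phosphorylate RB1, and CDK2 with cyclin E completes it, which frees the E2F transcription factors. The INK4 inhibitors such as CDKN2C bind CDK4 and CDK6 themselves, whereas CDKN1A and CDKN1B bind the assembled cyclin and kinase complexes. In muscle, myoblasts leave the cell cycle for good when they differentiate, with CDKN1A, CDKN2C and RB1 among the known factors of that exit, while satellite cells remain as a reserve of quiescent precursors.

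Each probe on the array is 60 bases long. Several results below turn on whether probes of 1 gene moved alike, so these probes are shown as the array files give them, 5′ to 3′. The 2 CDKN1B probes are the same stretch with 59 of 60 bases identical and the substitution T14A (A_72_P178166 first, position counted from its 5′ end). Their first 30 bases are given with that base in capitals.
CDKN1B A_72_P178166: gttttttcccctcTtctgttaaataatatg
CDKN1B O7836: gttttttcccctcAtctgttaaataatatg
The 2 brighter CDKN1A probes lie 2 bases apart on the same stretch, with 57 of 58 shared positions identical and the substitution A55G, counted in A_72_P715228. Their last 30 bases have that base in capitals, and the first 30 bases of A_72_P477002, a CDKN1A probe that moved the other way with age, follow.
CDKN1A A_72_P715228: taaatatttctggtgattttacttAtaaaa
CDKN1A A_72_P152936: aataaatatttctggtgattttacttGtaa
CDKN1A A_72_P477002: cccgagcttctggcattagaattatttaaa
For CCND3, bases 30 to 59 of the brightest probe are set beside the whole of the probe with the largest age and breed differences. Capitals mark AATAAA, the commonest polyadenylation signal.
CCND3 O11894: tcatgctatgttAATAAAaattctggaata
CCND3 A_72_P582587: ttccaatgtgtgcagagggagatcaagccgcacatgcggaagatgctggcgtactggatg
The CDK6 probes, of which 30 bases each are shown, come from different stretches. The CDK2 probe A_72_P661793 is shown because its age difference depended on breed, a call that no other CDK2 probe gave.
CDK6 A_72_P339688: cagttaatttgctagttgtaaagggttcac
CDK6 O14748: cagtgattatctgaaaaggccatactgctc
CDK2 A_72_P661793: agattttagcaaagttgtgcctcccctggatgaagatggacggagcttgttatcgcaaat
AATAAA was found in 3 of the 19 probes (CCND3 O11894 and the 2 brighter CDKN1A probes) and in 10.3% of all 60305 probes, with 4.32% holding it on the other strand. A stop codon stood in all 3 forward frames of 7 of the 19 probes. The longest run of bases shared by probes of different member genes was 9 bases over 156 pairs. The array files name no genome build, and no position is given.

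All 19 probes were among the 42435 kept for testing, that is, those detected (marked by the scanner software as well above background) in 80% or more of the fetuses in any of the 8 groups. Between 34347 and 45684 probes per array were well above background, and the 61 arrays lay on 8 slides that each held 6 to 8 of the 8 groups. On all 61 arrays 17 of the 19 member probes were detected. The exceptions were CCND3 A_72_P582587, detected on 56 arrays and on 4 of the 7 MS fetuses at d110, and CDKN1A O11893, detected on 60. Levels are normalised log2 intensities, in which 1 unit is a 2-fold difference, and are comparable between fetuses for 1 probe but not between probes. Results for a member gene refer to its brightest kept member probe unless another is named.

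The gestational age comparison asked which of these genes differ between the last phase of fetal growth and the days before birth. By brightest probe, CDK6, CDK4, CDK2, CCND2, CCND3 and CDKN2C were all lower at d110 than at d90 in each of the 4 genotypes. The message of CDKN1B was slightly higher. CCND1 differed by little, and the probes of CDKN1A disagreed on the direction. Of the 19 probes, 18 were differentially expressed probes (DEPs) for the mean age difference over the 4 genotypes at an adjusted p of 1% (limma, Benjamini-Hochberg over all kept probes), 14 lower and 4 higher at d110, beside 72.3% of all kept probes, 35% lower and 37.3% higher. The median age difference of the 19 probes was -0.72 log2, against 0.04 over all kept probes. In the F test over the 8 groups, with Bonferroni correction at 1%, 13 of 19 probes were DEPs, against 44.9% of kept probes. CDK2 A_72_P661793 is in both counts of DEPs. It was named by gene lists chosen from these same data, so its calls are no independent result.

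**Figure D1:**
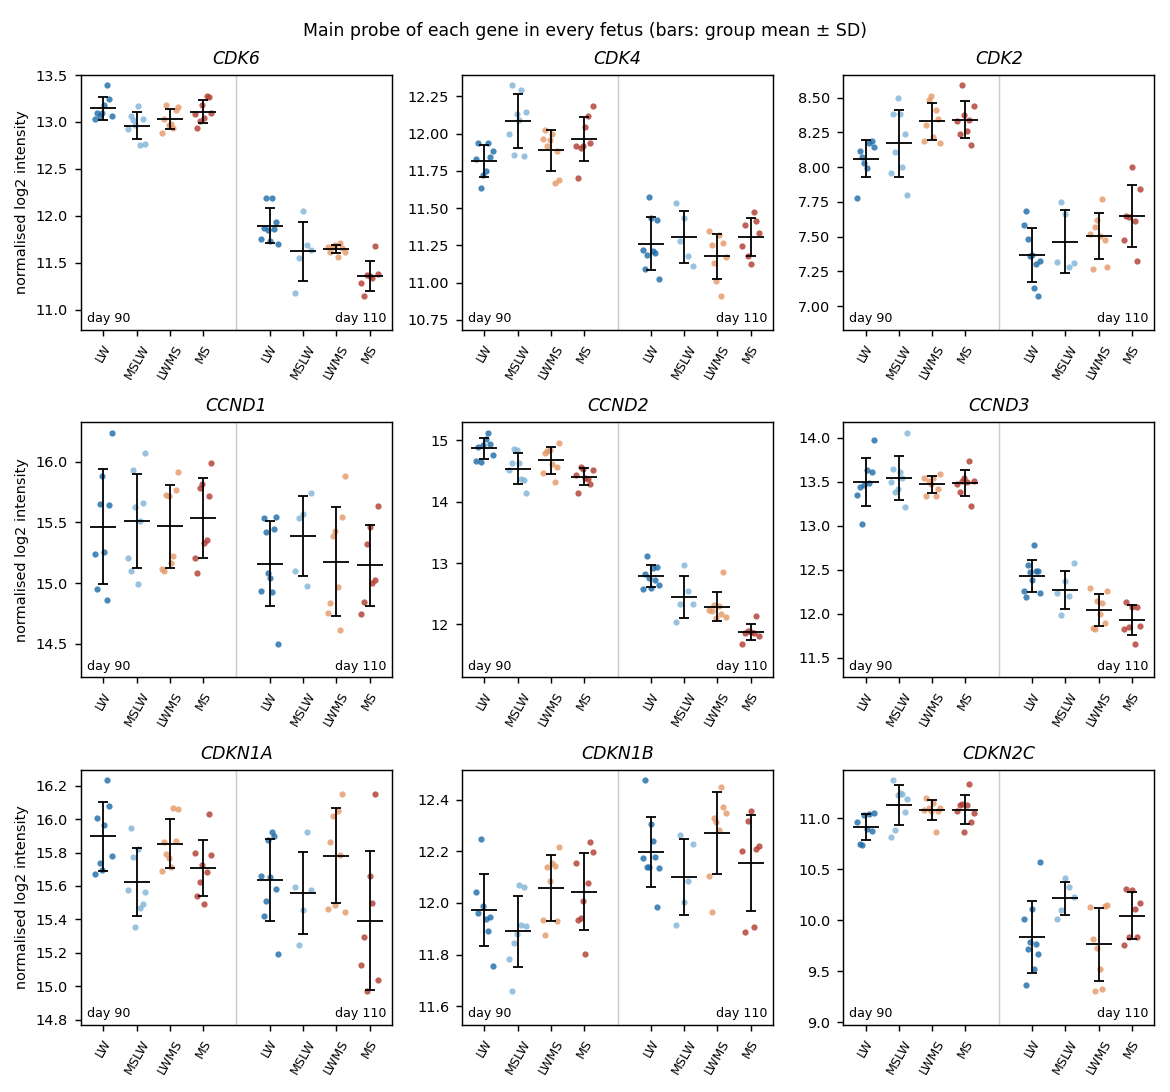
Normalised log2 intensity (vertical axis, 1 scale per panel) of the brightest probe of each gene in all 61 fetuses, by genotype at day 90 (left) and day 110 (right); bars show the group mean ± SD. CDK6, CCND2, CCND3, CDK4 and CDKN2C separate the ages without overlap, whereas the CCND1, CDKN1A and CDKN1B clouds overlap.

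CDK6, the kinase that D cyclins switch on alongside CDK4, stood at 12.76 in the lowest, 13.06 in the median and 13.39 in the highest of the 32 d90 fetuses. Among the 29 d110 fetuses the lowest, median and highest values were 11.15, 11.67 and 12.19. The ages did not overlap. The mean age difference was -1.43 (SE 0.04, adjusted p = 2.62e-37), that is 2.69-fold lower at d110. The other CDK6 probe, O14748, gave -1.41 (SE 0.04) and no overlap either. A further probe with another array name, described as CDK6 in the gene lists of the study and sharing 56 of 56 overlapping bases with A_72_P339688, gave -1.46.

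CDK4, the second partner of the D cyclins, ranged from 11.63 to 12.32 (median 11.93) at d90 and from 10.91 to 11.57 (median 11.24) at d110. The lowest d90 fetus thus stood just above the highest d110 fetus. Its difference of -0.67 (SE 0.04, adjusted p = 2.89e-22) was less than that of CDK6, and the other CDK4 probes gave -0.72 each, with the ages overlapping.

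CDK2, which acts with cyclin E after the D cyclin kinases, spanned 7.78 to 8.59 (median 8.23) at d90 and 7.07 to 8.00 (median 7.48) at d110. The ages overlapped, yet the difference of -0.73 (SE 0.05, adjusted p = 1.65e-20) was a DEP in every genotype. The second CDK2 probe, A_72_P661793, differed by -0.23 (SE 0.04, adjusted p = 5.54e-06). It was not a DEP within MS (0.00) or MSLW (-0.18). A further 5 probes name CDK2 only through its RefSeq gene number and are outside the rule. Their mean age differences ran from -0.91 to -0.51, all of them DEPs.

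Among the D cyclins, which couple growth signals to CDK4 and CDK6, CCND2 had the largest age difference of the 19 probes. The 32 fetuses at d90 lay between 14.14 and 15.13 with a median of 14.62, and the 29 at d110 between 11.69 and 13.11 with a median of 12.32. More than 1 log2 unit separated the lowest d90 from the highest d110 fetus. The difference was -2.27 (SE 0.05, adjusted p = 8.2e-41), a 4.84-fold lower level.

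CCND3, the D cyclin known to be induced in differentiating myoblasts, ranged from 13.02 to 14.06 (median 13.50) at d90 and from 11.66 to 12.77 (median 12.19) at d110. There was no overlap, and the difference was -1.33 (SE 0.05, adjusted p = 2.53e-31). Its other probes moved the same way by different amounts, -0.85 (SE 0.06) for A_72_P234497 and -1.81 (SE 0.09) for A_72_P582587, which has the sequence printed above, was dim at d110 and gave -0.92 when the background was corrected by normexp, a model of background plus signal.

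CCND1 differed the least of the D cyclins. Its d90 values ran from 14.86 to 16.24 (median 15.57) and its d110 values from 14.50 to 15.89 (median 15.10), so the ages overlapped over most of their range. The mean difference was -0.28 (SE 0.10, adjusted p = 0.00878), no single genotype was a DEP, and with scaling to the 75th percentile of each array in place of quantile normalization it became 0.24.

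The inhibitors did not move together. CDKN2C, which binds CDK4 and CDK6, went down with the kinases: 10.74 to 11.38 (median 11.08) at d90 against 9.30 to 10.57 (median 10.01) at d110, without overlap. That is a difference of -1.09 (SE 0.06, adjusted p = 7.57e-24), or 2.13-fold.

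CDKN1B, an inhibitor of quiescent cells, was the one gene whose brightest probe was a DEP toward d110. It ranged from 11.66 to 12.25 (median 11.95) at d90 and from 11.89 to 12.48 (median 12.21) at d110. The difference was small, 0.19 (SE 0.04, adjusted p = 2.39e-05), and a DEP within LW alone (0.23, adjusted p = 0.00817). Probe O7836, which differs from it by the single base shown, gave 0.25 (SE 0.04, adjusted p = 6.17e-09) and was a DEP in LW, LWMS and MSLW.

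CDKN1A, a target of p53 and of the myogenic factors, had values from 15.35 to 16.23 (median 15.77) at d90 and from 14.97 to 16.15 (median 15.58) at d110 on its brightest probe. This difference of -0.18 (SE 0.06, adjusted p = 0.0102) missed the threshold, and A_72_P152936, from the same stretch, gave -0.19 (adjusted p = 0.00487). The other probes went up, A_72_P477002 by 0.36 (SE 0.07, adjusted p = 4.92e-06) and O11893 by 0.44 (SE 0.09, adjusted p = 1.5e-05). With 75th percentile scaling the bright probes also rose, by 0.34 and 0.32, so no direction is given for this gene. The ages overlapped on all 4 probes.

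**Figure D2:**
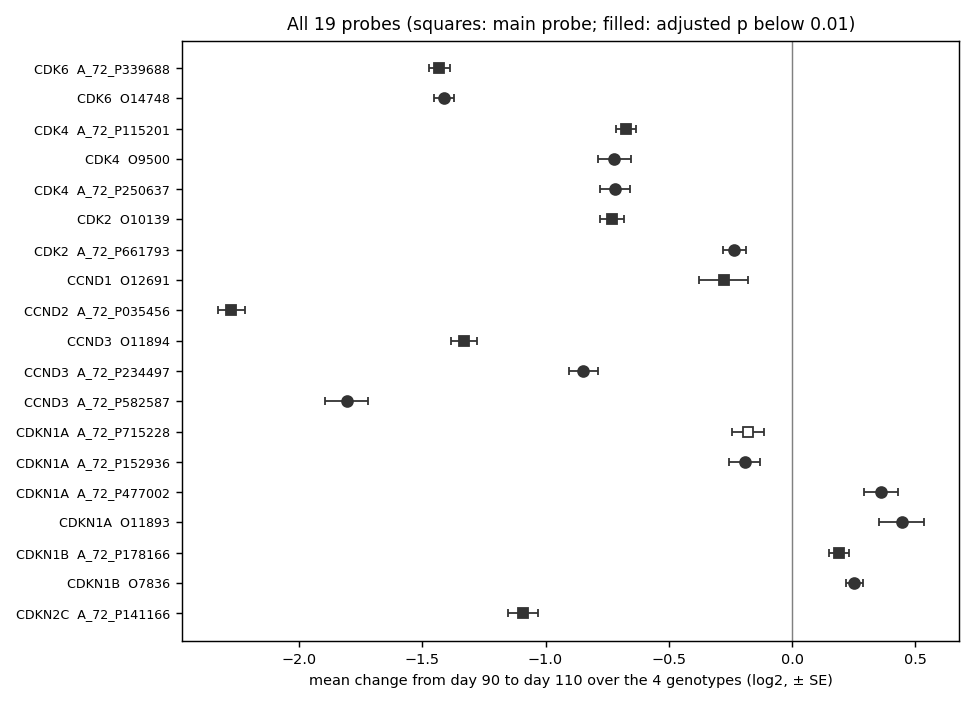
Mean change from day 90 to day 110 over the 4 genotypes (horizontal axis, log2, ± SE) for all 19 probes, one row per probe; squares are the brightest probe of a gene and filled symbols are DEPs at 1%. All probes of CDK6, CDK4, CDK2 and CCND3 lie left of 0, both CDKN1B probes lie right of 0, and the 4 CDKN1A probes lie on both sides.

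No overlap between all d90 and all d110 fetuses was seen for 7 of the 19 probes, each lower at d110, beside 10.1% of kept probes in either direction and 6.07% lower at d110. The probes were both of CDK6, A_72_P115201 of CDK4, that of CCND2, O11894 and A_72_P582587 of CCND3, and that of CDKN2C. The age difference was also computed within each of the 8 slides. It was negative on 8 of 8 slides for CDK6 (-1.65 to -1.23), CDK4 (-0.87 to -0.57), CDK2 (-0.83 to -0.59), CCND1 (-0.68 to -0.15), CCND2 (-2.57 to -1.96), CCND3 (-1.49 to -1.18) and CDKN2C (-1.42 to -0.78), and positive on 8 of 8 for CDKN1B (0.07 to 0.30). For CDKN1A it was negative on 6 and positive on 2.

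Within single genotypes the DEPs numbered 14 of 19 in LW fetuses (45.3% of kept probes), 12 in MS fetuses (56.7%), 15 in LWMS (50.9%) and 13 in MSLW (44.6%). The CDK6 differences were -1.74 for MS, -1.39 for LWMS, -1.34 for MSLW and -1.25 for LW. Those of CCND2, in this order, were -2.53, -2.38, -2.09 and -2.09, and those of CCND3 were -1.56, -1.42, -1.27 and -1.07. These 3 genes had their greatest drop in MS. The median absolute age difference of all kept probes was also greatest in MS, at 0.50, against 0.35 in LW and 0.41 in each cross. The differences of CDK4 lay between -0.78 and -0.55, those of CDK2 between -0.83 and -0.69 and those of CDKN2C between -1.32 (LWMS) and -0.92 (MSLW).

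**Figure D3:**
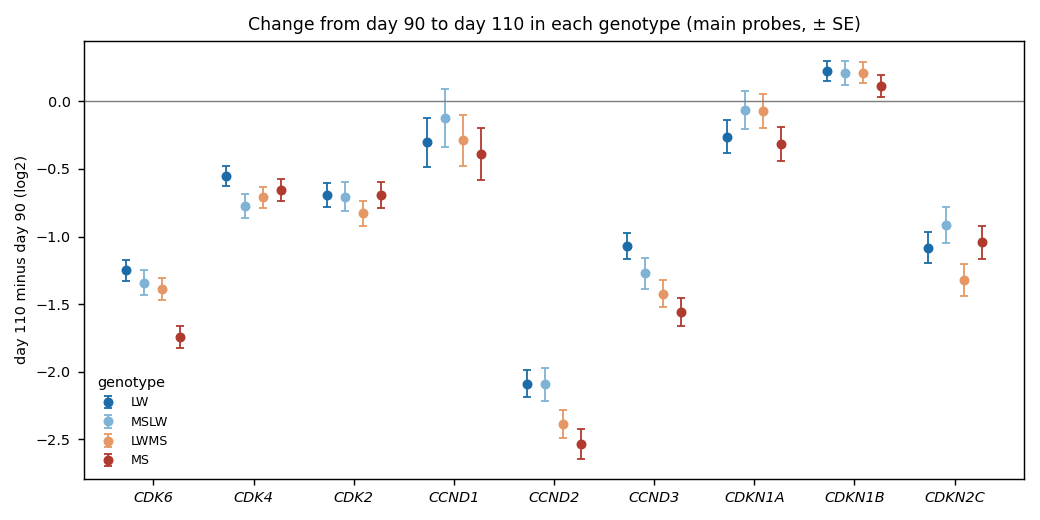
Difference day 110 minus day 90 (vertical axis, log2, ± SE) of the brightest probe of each gene in LW, MSLW, LWMS and MS fetuses. For CDK6, CCND2 and CCND3 the MS point is the lowest of the 4, at -1.74, -2.53 and -1.56.

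MS and LW were compared at each age because the breeds differ in piglet maturity and survival at birth. At d110, CDK6, CCND2 and CCND3 were lower in MS, while CDK4, CCND1, CDKN1A, CDKN1B and CDKN2C showed no DEP. At d90 CCND2 alone was a DEP. The counts were 1 of 19 probes at d90 (12.8% of kept probes) and 6 of 19 at d110 (29%), 5 lower in MS (15.2% of kept probes) and 1 higher (13.7%), so the share at d90 was under the background and that at d110 near it. The 1 higher was CDK2 A_72_P661793, named by gene lists chosen from these same data, so its call is no independent result.

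For CCND2 at d90, the 8 LW fetuses had a lowest value of 14.64, a median of 14.91 and a highest of 15.13, and the 8 MS fetuses 14.15, 14.41 and 14.57. At d110 the 9 LW fetuses had 12.57, 12.76 and 13.11 and the 7 MS fetuses 11.69, 11.87 and 12.13. The breeds did not overlap at either age. MS was lower by 0.47 at d90 (log2 difference -0.47, SE 0.11, adjusted p = 0.000644) and by 0.91 at d110 (-0.91, SE 0.11, adjusted p = 4.96e-10).

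For CDK6 the breeds overlapped at d90, at 13.04 to 13.39 in LW and 12.93 to 13.27 in MS, and the difference of -0.04 had a 95% interval of -0.20 to 0.12. At d110 the LW fetuses ran from 11.70 to 12.19 (median 11.86) and the MS fetuses from 11.15 to 11.68 (median 11.36), just without overlap. MS was lower there by -0.53 (SE 0.08, adjusted p = 2.93e-07), and on O14748 by -0.47 (SE 0.08, adjusted p = 3.31e-06).

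CCND3 had the same form. At d90 LW spanned 13.02 to 13.97 and MS 13.22 to 13.73, a difference of -0.01 with a 95% interval of -0.21 to 0.18. At d110 LW spanned 12.19 to 12.77 (median 12.47) and MS 11.66 to 12.13 (median 11.86), a difference of -0.50 (SE 0.10, adjusted p = 4.85e-05). The dim probe A_72_P582587 gave -0.95 (SE 0.17, adjusted p = 7.64e-06) with overlapping breeds, and -0.35 with normexp. A_72_P234497 gave -0.26 (SE 0.12, adjusted p = 0.0626), short of the threshold. The median of the 3 probes, each centred on its own mean, gave -0.46 (adjusted p = 0.000197).

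**Figure D4:**
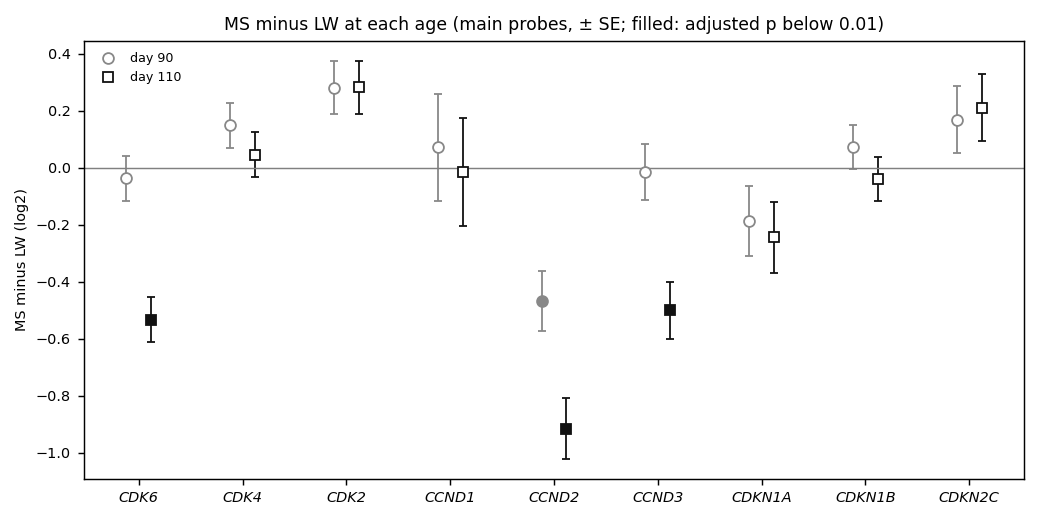
Difference MS minus LW (vertical axis, log2, ± SE) of the brightest probe of each gene at day 90 (circles) and day 110 (squares); filled symbols are DEPs at 1%. CCND2 is below 0 at both ages, at -0.47 and -0.91, and CDK6 and CCND3 are below 0 at day 110, at -0.53 and -0.50.

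No overlap of MS and LW was found in 6.75% of kept probes at d90 and 8.27% at d110. On the 6 slides that held both breeds at d110, MS was lower on 6 of 6 for CDK6 (-0.83 to -0.28), CCND2 (-1.24 to -0.63) and CCND3 (-0.81 to -0.34), and CCND2 at d90 was lower on 8 of 8 slides (-0.75 to -0.07).

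CDK2 went the other way on some probes. Its brightest member probe was higher in MS by 0.28 at d90 (adjusted p = 0.0242) and 0.28 at d110 (adjusted p = 0.0133), both short of the threshold. On A_72_P661793 the LW fetuses at d110 had 6.78, 7.02 and 7.38 as lowest, median and highest and the MS fetuses 7.14, 7.47 and 7.82, overlapping, with MS higher by 0.47 (SE 0.09, adjusted p = 1.51e-05). Of the 5 probes outside the rule, A_72_P673069 was higher in MS by 0.78 at d90 (adjusted p = 1.11e-08) and 0.81 at d110, and A_72_P454369 and A_72_P502967 by 0.45 and 0.31 at d110. The other 2 were not DEPs, so the size of the CDK2 breed difference depended on the probe. Of the 5, A_72_P502967 was brighter than both member probes, with group means of 9.65 to 10.62. The median of both member probes, each centred, was a DEP at d110 (0.38, adjusted p = 2.8e-05). It rests in part on A_72_P661793, which was named by gene lists chosen from these same data.

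Whether the age difference itself depended on breed was tested as an interaction, in which 3 of 19 probes were DEPs (5.95% of kept probes). CDK6 fell by 0.49 more in MS than in LW (log2, SE 0.11, adjusted p = 0.00197), with 0.33 more on O14748, short of the threshold (adjusted p = 0.0387). CCND3 A_72_P582587 fell by 1.09 more in MS (SE 0.24, adjusted p = 0.0013), but it was detected in only 4 of the 7 MS fetuses at d110, and with normexp the estimate was -0.44 and not a DEP (adjusted p = 0.0109). CDK2 A_72_P661793 fell in LW, by 0.45, and differed by 0.00 in MS, an interaction of 0.45 (SE 0.12, adjusted p = 0.00943). This probe is a member only through the gene lists of the study, which were chosen from these same data by age and genotype effects. Its call, counted among the 3, is therefore no independent result. The brightest member probe of CDK2 gave 0.0008 (adjusted p = 0.998). The 5 CDK2 probes outside the rule gave 0.03 to 0.41, none a DEP. For CCND2 and CCND3 O11894 the estimates were -0.45 (adjusted p = 0.0358) and -0.49 (adjusted p = 0.0142), not DEPs. The CDK4 estimate was -0.10 with a 95% interval of -0.33 to 0.12, and that of CDKN2C 0.04 with -0.29 to 0.37.

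Crossbred fetuses stood between the purebreds for CDK6, CCND2 and CCND3 at d110. The CCND2 medians were 12.76 in LW, 12.34 in MSLW, 12.23 in LWMS and 11.87 in MS. Single MSLW values for CCND2 were 12.05, 12.34, 12.98, 12.55 and 12.33, and those of the 8 LWMS fetuses ran from 12.11 to 12.85. For CDK6 the MSLW values were 11.18, 11.55, 12.06, 11.69 and 11.64, against 11.56 to 11.71 in LWMS. The crosses overlapped in both cases, and the MSLW range of CDK6 reached into those of both purebreds.

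The reciprocal crosses carry both genomes in opposite parental roles. MSLW minus LWMS gave no DEP among the 19 probes at d90 (0.5% of kept probes) or d110 (0.912%) in limma, where 3 and 4 probes had an unadjusted p below 0.05. The nearest were CDKN2C at d110, higher in MSLW by 0.45 (adjusted p = 0.0502), and CCND3 A_72_P582587, higher by 0.64 (adjusted p = 0.0534). For CDKN2C the MSLW values were 10.01, 10.10, 10.41, 10.32 and 10.23 and the LWMS fetuses ran from 9.30 to 10.15, with overlap. The mean of the crosses minus that of the purebreds gave no DEP at either age (0.0495% and 0.0778% of kept probes), with 1 probe at an unadjusted p below 0.05 each time.

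In the model with maternal and paternal genotypes, 1 of 19 probes had a DEP interaction of maternal genotype and age (3.05% of kept probes). This was CCND3 A_72_P582587, at -0.87 for an MS mother (SE 0.17, adjusted p = 0.000713), and with normexp at -0.34 and not a DEP (adjusted p = 0.0101). The estimates for CCND2 and CCND3 O11894 were -0.36 (adjusted p = 0.0266) and -0.32 (adjusted p = 0.0353). No probe was a DEP for the interaction of paternal genotype and age (0.462% of kept probes), where 3 had an unadjusted p below 0.05.

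The genes around the G1 switch were followed through 5 lists, each gene by its brightest probe. Among the partners of G1 and S phase entry, 9 of 14 listed genes were tested, 4 were lower at d110, 2 were higher and 3 were not DEPs (median -0.01, against 0.04 over all kept probes). SKP2, the ubiquitin ligase subunit that marks CDKN1B for degradation, changed by -2.74 (SE 0.10), and CKS1B, its cofactor for CDKN1B, by -1.55 (SE 0.04). The CDK binding subunit CKS2 changed by -2.61 (SE 0.08), and cyclin E1 (CCNE1), the partner of CDK2, by -0.29 (SE 0.08, adjusted p = 0.00112). Toward d110, MYC gained 0.60 (SE 0.06) and MYCN 0.74 (SE 0.08). CDC37, the co-chaperone that delivers CDK4 and CDK6, was near 0 (-0.01, adjusted p = 0.652), and with 75th percentile scaling was 0.47.

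For the pocket proteins and E2F factors, which act downstream of the kinases, 14 of 19 genes were tested, with 9 lower at d110, 3 higher and 2 not DEPs (median -0.38). The RB1 relatives moved apart: RBL1 (p107), known from cycling cells, by -0.98 (SE 0.06) and RBL2 (p130), known from quiescent cells, by 0.44 (SE 0.08). E2F8, an E2F of S phase, was well above background on 32 of 32 arrays at d90 and 5 of 29 at d110, and its level was at least 9.30-fold higher at d90, with values below the dimmest detected probe of an array set to that probe. MYBL2, an E2F target that drives mitotic genes, differed by -2.60 (SE 0.07). FOXM1 was above background on 29 of 32 arrays at d90 and none of 29 at d110, so its level was at least 1.48-fold higher at d90 by the same rule. The repressor E2F6 gained 0.93 (SE 0.07) and LIN54, a subunit of the DREAM complex, 0.91 (SE 0.06).

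The E2F target genes of S phase were read from 9 of 15 listed genes, 7 lower at d110, 1 higher and 1 not a DEP (median -1.53). The greatest differences were in the topoisomerase TOP2A (-3.99, SE 0.13), the ribonucleotide reductase RRM2 (-3.85, SE 0.11) and the helicase subunit MCM3 (-3.48, SE 0.16, above background on 22 of 29 arrays at d110). MKI67, a marker of cycling cells, was the exception at 0.41 (SE 0.04), and its other probes split, 1 higher and 1 lower.

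Of the list of other cell cycle inhibitors, 10 of 12 genes were tested, with 5 higher at d110, 1 lower and 4 not DEPs (median 0.23), beside the 37.3% of all kept probes that were higher. The 5 higher genes, GADD45A, GADD45B, GADD45G, BTG2 and CCNG1, are known as growth arrest or p53 response genes. The CDK inhibitors CDKN1C and CDKN2D were at -0.13 (adjusted p = 0.141) and -0.14 (adjusted p = 0.0392), not DEPs. GADD45A, a growth arrest gene, gained 1.91 (SE 0.12), the antiproliferative BTG2 0.94 (SE 0.15) and GADD45G 0.79 (SE 0.15). The phosphatase CDKN3, which acts on CDKs, was the gene that fell (-0.28, SE 0.05).

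Of the myogenic regulators, 7 of 7 were DEPs, 5 lower and 2 higher at d110 (median -0.92). MYF5 changed by -1.55 (SE 0.08), MYOG by -1.05 (SE 0.07) and MYOD1 by -0.99 (SE 0.07), whereas PAX7 and PAX3, which mark muscle precursors, gained 0.84 (SE 0.06) and 0.82 (SE 0.06).

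**Figure D5:**
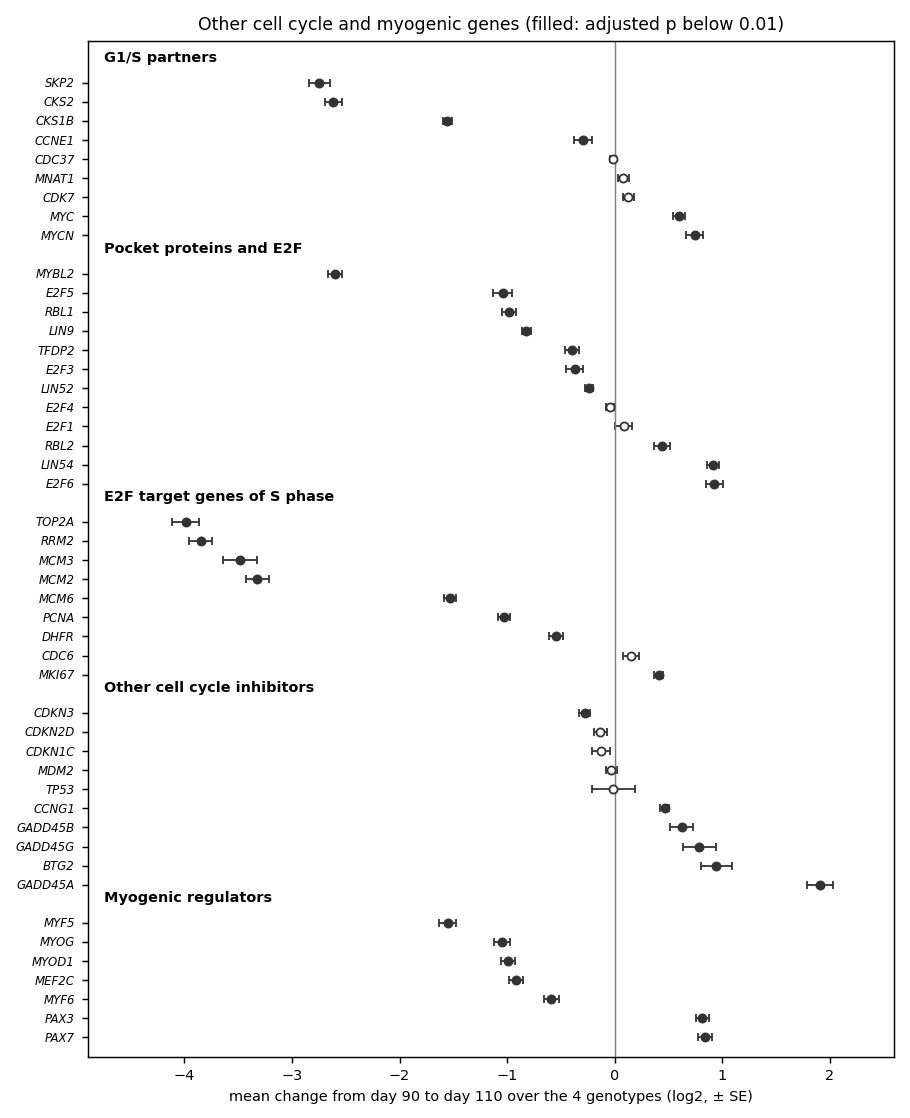
Mean change from day 90 to day 110 over the 4 genotypes (horizontal axis, log2, ± SE) of the brightest probe of each tested gene in 5 lists; filled points are DEPs at 1%, and E2F8 and FOXM1, mostly or wholly below background at day 110, are left out. Most S phase genes lie left of 0, down to -3.99 for TOP2A, with MKI67 right of 0 at 0.41, and the inhibitors reach 1.91 for GADD45A.

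The same lists were read between the breeds at d110, where 15.2% of all kept probes were lower in MS and 13.7% higher. MS was lower for 3 of 9 G1 and S phase partners (SKP2 -1.41, CKS2 -0.86, CKS1B -0.48) and higher for 2 (MYC 0.37, MYCN 0.55), 5 calls that became 3 in a fit of LW and MS alone. It was lower for 4 of 9 S phase targets (TOP2A -1.12, MCM2 -0.97, MCM6 -0.78 and MCM3, detected in 4 of the 7 MS fetuses, -1.56). Of the pocket protein and E2F list 6 of 14 were called lower. They were RBL1 (-0.70), MYBL2 (-0.81), LIN52 (-0.28), E2F4 (-0.21), E2F5 (-0.87, detected in 3 of the 7 MS fetuses) and E2F8. No difference is given for E2F8, which was not above background in any MS fetus at d110. Of the inhibitor list CCNG1 was higher in MS (0.48) and CDKN3 lower (-0.36). Of the 7 myogenic regulators MYOG was lower in MS by -0.48 (adjusted p = 0.00644), PAX7 was higher in MS by 1.16 (adjusted p = 5.4e-11) and PAX3 by 0.79 (adjusted p = 6.94e-07). The interaction of breed and age was a DEP for SKP2 (-1.20), CKS2 (-0.93), TOP2A (-1.28), RBL1 (-0.68), LIN52 (-0.39), MDM2 (-0.54), PAX7 (0.88) and PAX3 (0.79).

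Markers of other cell types were read on the same arrays. All 7 muscle fibre markers were detected, with a mean level of 16.67 to 17.12 at d90 and 17.11 to 17.50 at d110 over the fetuses. With age 4 of the 7 were higher, 1 was lower and 2 were not DEPs. Between the breeds, 2 were higher and 1 lower in MS at d90, and 2 higher and 0 lower at d110. At d110 the mean level of the 7 was 17.38 to 17.50 in MS and 17.11 to 17.34 in LW, without overlap. All 5 fibroblast markers were lower at d110, by -1.70 (COL3A1) to -0.80 (PDGFRA), and 4 of the 5 were lower in MS than in LW at d110 (median -0.94). The mean level of the 5 fibroblast markers ranged over 12.68 to 13.12 in LW and 11.98 to 12.25 in MS at d110, and over 13.73 to 14.01 in LW and 13.84 to 14.11 in MS at d90. Their interaction of breed and age was a DEP, greater in MS, for 4 of 5. The fibroblast markers were thus lower with age, and most were lower in MS at d110, as CDK6, CCND2 and CCND3 were. At d90 none of them was a DEP between the breeds (median 0.09), nor were CDK6 (-0.04) and CCND3 (-0.01). CCND2 was lower in MS at that age (-0.47). The interaction of breed and age was a DEP for CDK6 (-0.49). For CCND2 (-0.45) and CCND3 O11894 (-0.49) it was short of the threshold. The part of the fibroblast and fibre markers in the differences of these genes was not tested. With age, the endothelial, erythroid and adipocyte lists each had 1 gene higher, 2 lower and 1 not a DEP of 4, and 1 of 4 tested immune markers was lower. None of these 4 lists had a DEP lower in MS at d110 other than the erythroid SLC4A1 (-0.29, adjusted p = 0.00783).

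For the 6 genes that passed the F test, the named genes whose 8 group means followed most closely were sought among 9778 genes, by the root mean square difference after centring each gene. Nearest to CDK6 were YWHAQ (0.064 log2) and the collagen gene COL5A2 (0.070), and nearest to CCND2 AMPD2 (0.083) and TMEFF1 (0.097). CCND3 had CLIP2 (0.031) and PEA15 (0.047), CDK4 had KCTD1 (0.047) and NDRG3 (0.054), CDK2 had GNAS (0.075) and PHLDB2 (0.076), and CDKN2C had SH2B3 and TNK2 (0.066 each). The spread of the members' own 8 group means was 0.73 for CDK6, 1.17 for CCND2 and 0.68 for CCND3.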

How the data were processed

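Per the labels, total RNA of longissimus muscle was labelled with Cy3. Deposited intensities are Agilent Feature Extraction 10.10.1.1 scanner values, 1 file per fetus. The authors also deposited a table of quantile normalised log2 values (44368 rows, column medians 8.09 to 8.10), used as an alternative. It was matched to the scanner files by row position, at a lowest correlation of 0.998 per array.

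Background-subtracted intensities of 60306 non-control spots were quantile normalised and log2 transformed in R 4.3.3, with non-uniform spots (4 to 802 per array, median 16) left out, and 2 spots of 1 probe averaged. Probes that the software marked as well above background in 80% or more of the fetuses of any group were kept. Groups came from the labels. limma 3.58.1 was fitted to the 8 groups, and to gestational age, maternal and paternal genotype with their pairwise interactions, over all kept probes, with Benjamini-Hochberg adjustment at 1%. The random sow effect of the study was left out because the labels do not give the sow. The scripts were tested on simulated data. No member spot was saturated.

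A member gene was read by its kept member probe with the highest mean level, and a list gene by its kept probe with the highest mean level. List genes named are the DEPs with the largest mean age differences in each direction, at most 3 per list, and those a member is known to act with. The members and lists were chosen with earlier results of these data known. The alternatives were another signal column, the authors' table, normexp with an offset of 50, scaling to the 75th percentile, other filters, non-uniform spots kept, slide as a block, no moderation, LW and MS alone, the median of a gene's probes (also with each probe centred), and leaving out fetuses. The number of arrays limits the precision, and intervals are at 95%.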

Additional observations from a re-analysis of the deposited data

Results flagged for a closer look

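In 72 groups of fetuses, 9 genes by 8 groups, 3 held a fetus that stood far from the others by Dixon's test, which by chance marks about 5% of groups. CDK2 in replicate 1 of LW at d90 was 7.78, with the next fetus at 8.00. CCND2 in replicate 7 of LWMS at d110 was 12.85, with the next at 12.32. CDKN2C in replicate 6 of LWMS at d90 was 10.86, with the next at 11.07.

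The age difference depended on breed for 3 probes, tested as an interaction in limma. The values, MS minus LW, were -0.49 for CDK6 A_72_P339688, 0.45 for CDK2 A_72_P661793 and -1.09 for CCND3 A_72_P582587. The CDK2 probe is a member only through the gene lists of the study, which were chosen from these same data. No other CDK2 probe had such a DEP. For CCND3 A_72_P582587 the age difference also depended on the maternal genotype, at -0.87. This probe was detected in 4 of the 7 MS fetuses at d110.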

How the results depend on the processing

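No paired analysis was possible because the labels give no replicate numbers or litters shared by the groups. The slides, which the groups do share, were fitted as a block. The mean age differences of CDK6, CDK4, CDK2, CCND2, CCND3, CDKN2C and CDKN1B were DEPs under every alternative that held all 4 genotypes, and in those and with LW and MS alone so was the CDK6 interaction of breed and age. Scaling to the 75th percentile reversed 8 values, whose cause was not tested: CDKN1A A_72_P715228 at 0.45 in LWMS, 0.46 in MSLW and 0.34 on average, A_72_P152936 at 0.45, 0.42 and 0.32, CCND1 at 0.24 (adjusted p = 0.0207) and CDC37 at 0.47, and it moved the median of all probes in MS to 0.12. The count of 1 gene with an interaction of breed and age became 2 with non-uniform spots kept, with slide as a block, and without the 3 d90 arrays richest in such spots, an alternative chosen after seeing the data, as was leaving out the MS d90 fetus with the fewest probes above background. The count of 1 probe with an interaction of maternal genotype and age became 0 with normexp and with detection required on all arrays, which leaves out this probe, and 2 without those 3 arrays, where the count over genes went from 0 to 1. With LW and MS alone, 3 G1 and S phase partners in place of 5 differed between breeds at d110. The call of CCND3 as lower in MS at d110 was lost with the median of its probes' levels (-0.26), which takes the probe of middle brightness, but not with the median of centred probes, also chosen after seeing the data (-0.46). Leaving out 1 MSLW fetus at d110 in turn moved no member count by over 1.5 times except as given. Over all kept probes it moved the DEPs between the crosses at d110 from 387 to 238 and those for paternal genotype by age from 196 to 308 without replicate 3, and a slide block moved those for maternal genotype by age from 1293 to 2143. Of 2313 values of brightest probes, 2269 kept their call, 81 of them with a change of sign but no DEP in either fit. A further 15 lost a call, 25 gained one, and 4 changed direction with a DEP in at least 1 of the fits.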
